A study of Mus musculus with 8 samples.

Results

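This account covers the axon guidance families of ephrins, Slits and netrins, with the Eph, Robo, Dcc and Unc5 receptors that bind them, in stromal cells of the mouse small intestine. Members were picked out by gene name, and 39 of the 53801 genes in the count table belong to them. The choice was made with earlier results of these data known, so counts over the members are descriptions. Ntn3, the other name in the rule, was not analysed here. A filter on low counts left 33 of the 39 members among 16354 tested genes.

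RNA was sequenced from 8 libraries of stromal cells that lacked CD45, a protein of blood cells, and CD31, a protein of endothelium. The cells came from mice named for a YFP marker of the lymphotoxin beta receptor (LTβRYFP), and were sorted by flow cytometry into YFP+ and YFP- fractions with 4 libraries each. Both fractions come from the same kind of mouse, and the labels name no treatment, time, age, sex, strain or number of animals per library, nor what drives the marker. The titles of all 8 samples give the opposite YFP sign to the descriptions and genotypes, so every direction here rests on the latter and reverses under the titles.

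Library totals ran from 23272858 to 29829232 counts. Mitochondrial genes held 5.2, 7.38, 6.62 and 6.59% of the counts in YFP- replicates 1 to 4. In YFP+ replicates 1 to 4 they held less, 4.13, 4.53, 4.86 and 4.74%. The cause of this difference was not tested. Stromal markers were high in every library, their 10 genes summing to between 38344 and 50290 CPM (counts scaled to a common library size with edgeR's TMM factors). Blood cell markers summed to between 45.3 and 331 CPM and endothelial markers to between 44.2 and 93.2 CPM. Foxl1, Sox2 and Tubb3 among the markers were listed at 0 in all 8 libraries. Ltbr, the gene the mice are named after, had 56.6 ± 1.27 CPM in the YFP+ and 52.4 ± 6.85 CPM in the YFP- libraries (mean and SD, n = 4 per fraction), with a log2 ratio of 0.11.

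As background, Slits are large secreted proteins that repel cells through Robo receptors. Netrins are secreted, laminin-related proteins read by Dcc, which mostly attracts, and by Unc5 receptors, which mostly repel, while the netrin-G proteins are tethered to the membrane and bind other partners. Ephrins are membrane-bound ligands of the Eph receptor tyrosine kinases, the A class held by a lipid anchor and the B class by a transmembrane segment, and signals run into both touching cells. In the gut, EphB receptors and B-class ephrins are best known for keeping epithelial cells in order along the crypt and villus.

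Among the tested members, 7 were lower and 1 was higher in YFP+ by edgeR's quasi-likelihood test at an adjusted p of 0.05 over all tested genes. That is 21.2% and 3.03% of the 33, where 3.34% and 0.917% of all tested genes were lower and higher. Lower were the ligands Slit2, Slit3, Ntn4, Ntng1 and Efna5 and the receptors Epha2 and Ephb2, and the netrin receptor Unc5c was higher. A fit with the replicate number as a block called 10 members (30.3%, against 11.5% of all tested genes), adding Epha7 (lower) and Unc5b (higher). These are 8 lower and 2 higher, where 7.85% and 3.65% of all tested genes were. Counted by libraries alone, 8 members had every YFP+ value below every YFP- value and 2 had every one above, 30.3% of the 33. Over all tested genes this held for 9.64%, 5.86% below and 3.78% above. The median log2 fold change of YFP+ over YFP- (here the log2 ratio) over the 33 was -0.06, against 0.00 over all tested genes. In bulk samples, fewer cells of a type and less RNA per cell cannot be told apart.

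On GRCm38, with GENCODE M21 gene models, the lower genes lie at chr5:47983138-48307733 (Slit2), chr11:35121224-35708507 (Slit3), chr10:93640681-93747207 (Ntn4), chr3:109780040-110144011 (Ntng1), chr17:62604184-62881317 (Efna5), chr4:141301240-141329384 (Epha2) and chr4:136647539-136835988 (Ephb2). Ntng1, Efna5 and Ephb2 are on the minus strand and the others on the plus strand. Unc5c lies at chr3:141465216-141834924 on the plus strand. Of these 8 genes Unc5c alone shares exon sequence with another gene, 0.617% of it, on the opposite strand.

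**Figure D1:**
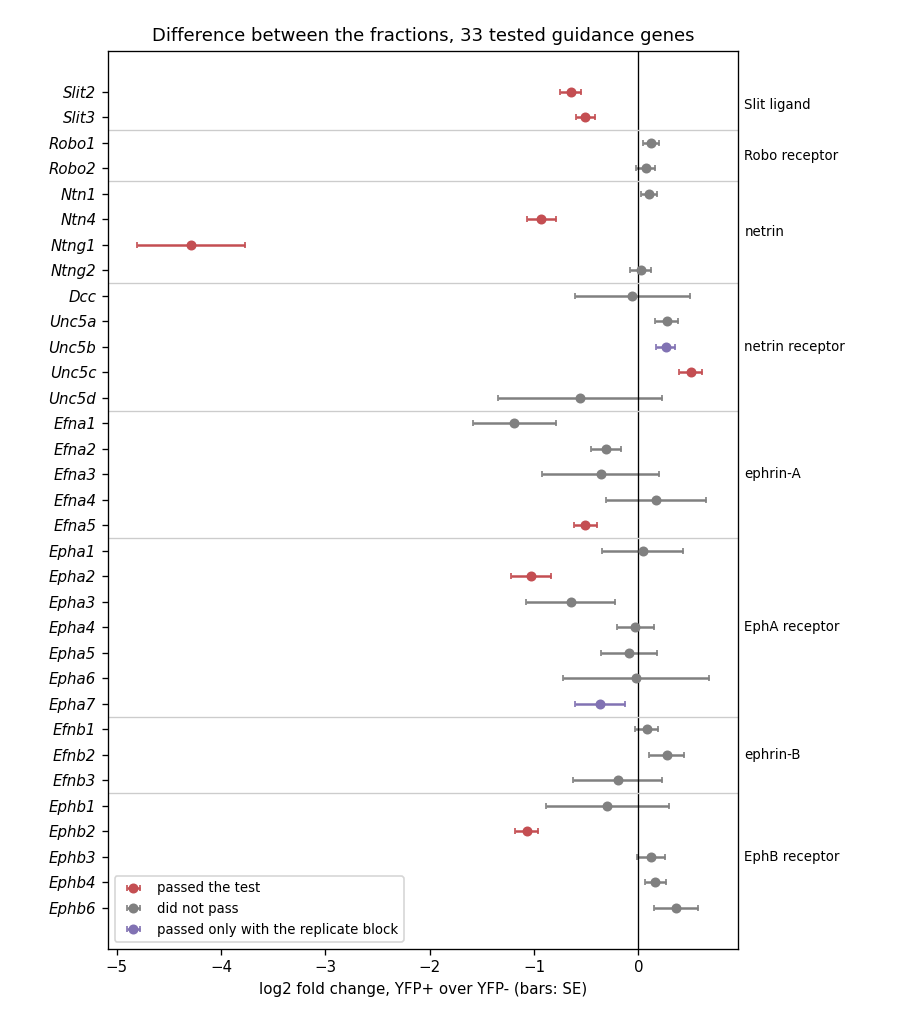
Log2 fold change of YFP+ over YFP- for the 33 tested members, grouped by role, with the SE as bars. The 7 lower and 1 higher members that passed the test stand apart in red, and Ntng1, at -4.29, lies furthest from 0.

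Slit3 was the most abundant member per length of exon, and both abundant Slits were lower in YFP+. Slit3 stood at 1788, 1852, 1595 and 1767 CPM in YFP- replicates 1 to 4 and at 1363, 1222, 1026 and 1308 CPM in YFP+ replicates 1 to 4. The highest YFP+ library lay below the lowest YFP- library. Its log2 ratio was -0.51 (SE 0.09, edgeR-adjusted p = 0.00424), or 0.703 times the YFP- level, and it was lower in all 4 same-numbered pairs. Slit2, encoding the best-studied Robo ligand, had 168.5, 223, 184 and 193.5 CPM in YFP- and 112.5, 140.4, 109.5 and 126 CPM in YFP+. Again the groups did not overlap, with a log2 ratio of -0.65 (SE 0.10, edgeR-adjusted p = 9.47e-04). The third Slit, Slit1, had too few counts to test, 108 over all 8 libraries.

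The receptors of the Slits did not pass. Robo2, the most abundant receptor of the set, had 678 ± 29.8 CPM in the YFP+ and 645 ± 86.7 CPM in the YFP- libraries (mean and SD, n = 4 per fraction), a log2 ratio of 0.07 (SE 0.09, edgeR-adjusted p = 0.785). Robo1 had 220.4 ± 15.8 and 203 ± 16.5 CPM (mean and SD, n = 4 per fraction), a log2 ratio of 0.12 (SE 0.08, edgeR-adjusted p = 0.565). In both genes the 2 groups of libraries overlapped. Whether the Slits and their receptors changed by different amounts was not tested. Robo3 and Robo4, the latter a Robo of blood vessels, had 9 and 79 counts over all libraries and were not tested.

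**Figure D2:**
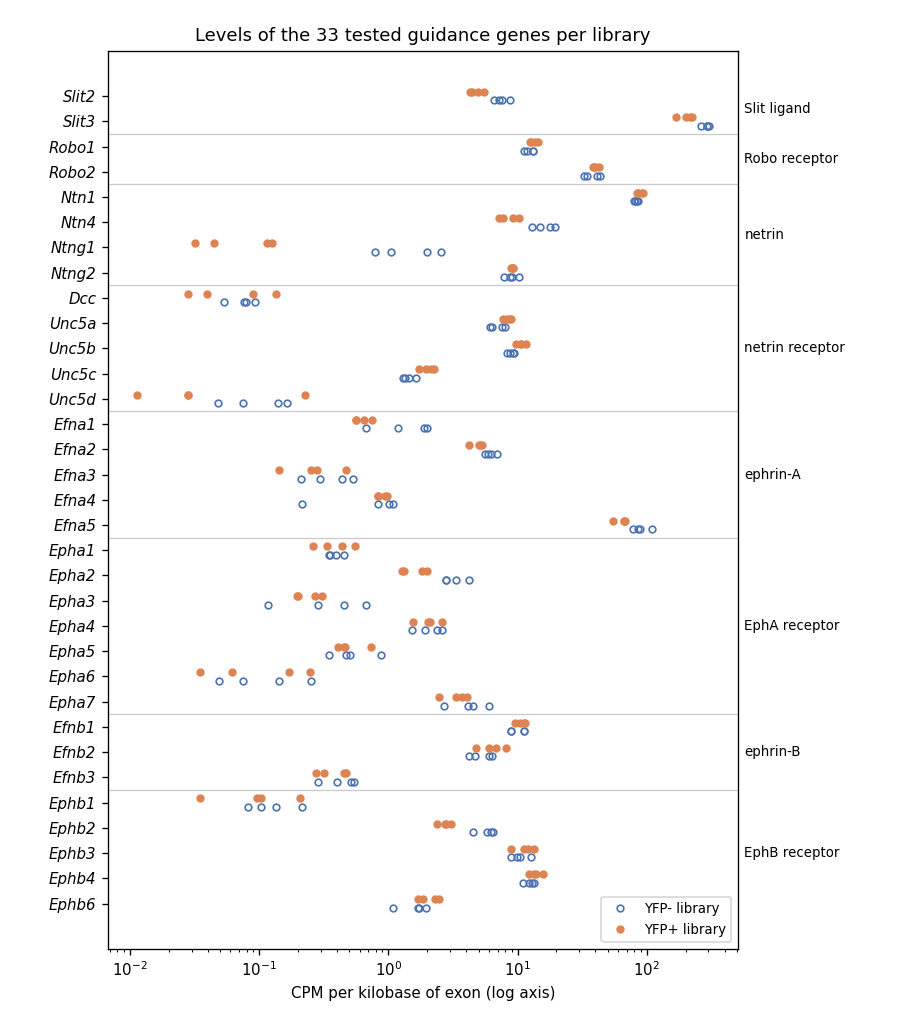
CPM per kilobase of exon on a log axis for each library, YFP- open and YFP+ filled, for the 33 tested members grouped by role. Slit3, Ntn1, Efna5 and Robo2 lie furthest right, and the Ntng1 points of the fractions lie far apart.

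Levels between genes were compared as CPM per kilobase of annotated exon, averaged over the 8 libraries. Slit3 led with 245.6, ahead of Ntn1 (85.7), Efna5 (77.4) and Robo2 (38.9). These are 2 secreted ligands, 1 anchored ligand and 1 receptor. Ntn1 and Efna5 did not keep an order in single libraries, since per length Efna5 was the higher of the pair in YFP- replicates 2, 3 and 4 and Ntn1 in the other libraries. In all, 9 members had a mean above 10. With the longest transcript as the length, Robo2 came to 77.0, close to Efna5 at 77.4.

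Among the netrins, Ntn4 and Ntng1 were lower in YFP+ and Ntn1 and Ntng2 did not pass. Ntn1, the classical secreted netrin and the most abundant of them, had 527, 539.9, 508 and 499 CPM in YFP- and 585, 578, 530.2 and 536 CPM in YFP+. These values overlapped, and the log2 ratio of 0.10 (SE 0.08) did not pass (edgeR-adjusted p = 0.574). Ntn4, a netrin of basement membranes that binds laminin, had 66.7, 48.2, 56.3 and 72.8 CPM in YFP- and 34.3, 28.9, 26.9 and 38.3 CPM in YFP+. Every YFP+ library was below every YFP- library, with a log2 ratio of -0.93 (SE 0.14, edgeR-adjusted p = 9.47e-04). Ntn5 had 2 counts in all.

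Ntng1 had the log2 fold change furthest from 0 among the 33 tested members. It encodes netrin-G1, a membrane-anchored netrin that does not bind Dcc or Unc5 receptors. The YFP- libraries had 6.45, 21, 16.5 and 8.70 CPM and the YFP+ libraries 0.261, 0.370, 0.950 and 1.04 CPM, from 7 to 30 counts per YFP+ library. YFP- replicates 2 and 3 were the highest, and even the lowest YFP- library was several times above the highest YFP+ library. The log2 ratio was -4.29 (SE 0.52, edgeR-adjusted p = 0.00131), a YFP+ level of 0.0511 times that in YFP-. Ntng2, its close relative, had 36.3 ± 0.655 CPM in the YFP+ and 35.8 ± 3.90 CPM in the YFP- libraries (mean and SD, n = 4 per fraction), a log2 ratio of 0.02 (SE 0.10, edgeR-adjusted p = 0.965). Some Ntng2 exon sequence (14.0%) is shared with a transcript on the same strand.

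Among the receptors of secreted netrins, Unc5c was higher in YFP+, and Unc5b passed only with the replicate block. Unc5c had 24.8, 31.1, 25.8 and 27.8 CPM in YFP- and 33, 41.0, 37.5 and 43.5 CPM in YFP+, with no overlap. The log2 ratio of 0.50 (SE 0.11) passed (edgeR-adjusted p = 0.0159) and was positive in all 4 same-numbered pairs. The call was lost without YFP- replicate 3 (edgeR-adjusted p = 0.0541) or without YFP+ replicate 4 (edgeR-adjusted p = 0.0523), and held with the replicate block (edgeR-adjusted p = 4.02e-04).

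Unc5b, also known from blood vessels, had 55.1, 58.0, 52.0 and 58.8 CPM in YFP- and 67.0, 60.5, 73.4 and 67.1 CPM in YFP+. The groups did not overlap, with a log2 ratio of 0.26 (SE 0.09, edgeR-adjusted p = 0.122, or 0.0261 with the block). Unc5a had 35.2 ± 2.33 CPM in the YFP+ and 29.2 ± 3.82 CPM in the YFP- libraries (mean and SD, n = 4 per fraction), a log2 ratio of 0.27 that did not pass (edgeR-adjusted p = 0.238). Unc5d was scarce, with 0.681 ± 0.947 and 0.989 ± 0.506 CPM (mean and SD, n = 4 per fraction). Dcc, the attractive netrin receptor, was near 1 CPM in both groups, 0.960 ± 0.643 and 0.995 ± 0.217 CPM (mean and SD, n = 4 per fraction), and did not pass (edgeR-adjusted p = 0.980).

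**Figure D3:**
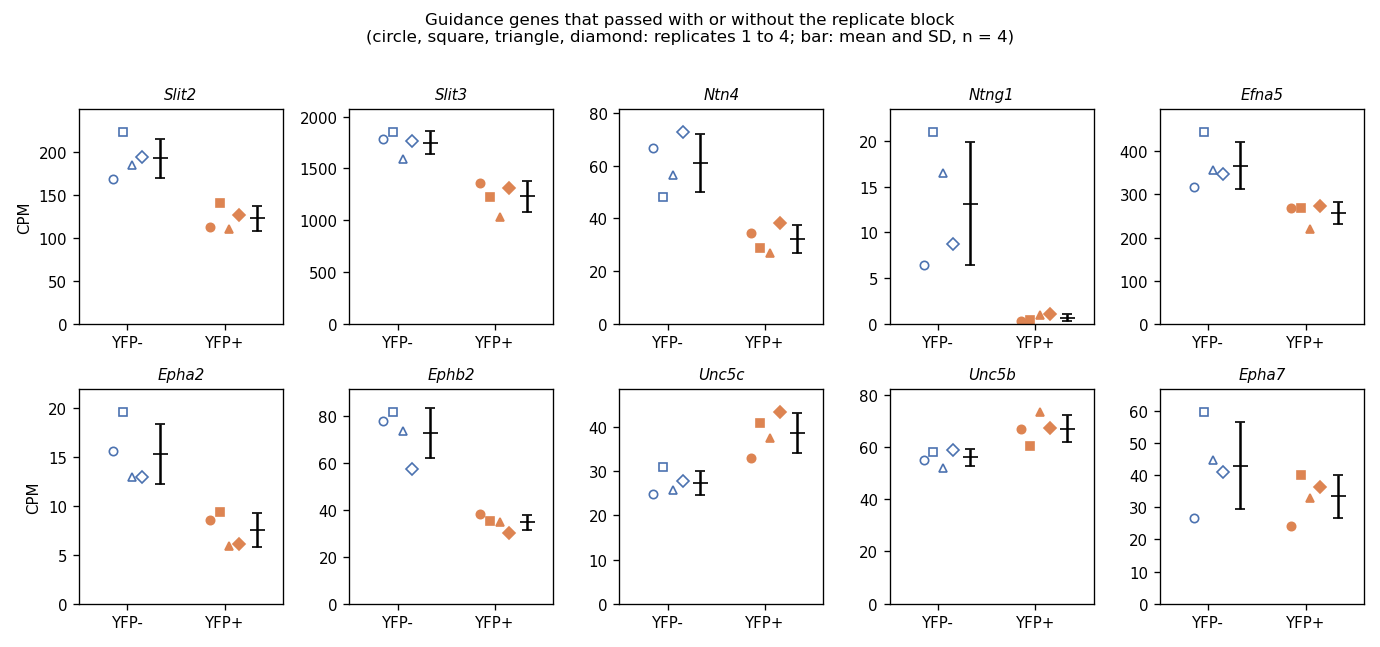
CPM per library for the 10 members that passed with or without the replicate block, each axis starting at 0, with the mean and SD of the 4 libraries of a fraction. The fractions do not overlap except for Epha7, and only Unc5c and Unc5b are higher in YFP+.

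Of the A-class ephrins, Efna5 made up most of the RNA and fell. It had 318, 445, 356 and 347 CPM in YFP- and 269, 269, 219 and 273 CPM in YFP+, the latter all lower. Its log2 ratio was -0.51 (SE 0.11, edgeR-adjusted p = 0.00922). Efna2 also did not overlap between the groups, with 13.3, 12.5, 11.9 and 14.7 CPM in YFP- and 10.8, 9.01, 11.4 and 11.0 CPM in YFP+. Its log2 ratio of -0.31 did not pass (edgeR-adjusted p = 0.314, or 0.175 with the block). Efna1, a ligand of Epha2, had 1.15 ± 0.169 CPM in the YFP+ and 2.63 ± 1.15 CPM in the YFP- libraries (mean and SD, n = 4 per fraction). Despite a log2 ratio of -1.19 (SE 0.40) it did not pass (edgeR-adjusted p = 0.129), and YFP- replicate 4, at 1.23 CPM, lay within the YFP+ values. Efna3 and Efna4 were at or below 1.74 CPM in every library.

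Epha2, an EphA receptor best known from epithelia, was lower in YFP+. It had 15.6, 19.6, 13.0 and 13.0 CPM in YFP- and 8.53, 9.38, 5.93 and 6.13 CPM in YFP+. No libraries of the groups overlapped, and the log2 ratio was -1.03 (SE 0.19, edgeR-adjusted p = 0.00416). Epha7, per length the most abundant EphA receptor, had 26.6, 59.8, 44.8 and 41.0 CPM in YFP- and 24.2, 40.0, 33.1 and 36.5 CPM in YFP+. The ranges overlapped, while YFP+ was the lower in all 4 same-numbered pairs. Its log2 ratio of -0.37 (SE 0.24) did not pass (edgeR-adjusted p = 0.548), and -0.33 (SE 0.09) with the block did (edgeR-adjusted p = 0.0183).

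The other EphA receptors did not pass in either fit. Epha4 had 16.7 ± 3.46 CPM in the YFP+ and 17 ± 3.89 CPM in the YFP- libraries, and Epha5 8.64 ± 2.52 and 9.17 ± 3.82 CPM (mean and SD, n = 4 per fraction). Epha3 had 2.12 ± 0.475 and 3.32 ± 2.06 CPM, Epha1 1.56 ± 0.493 and 1.52 ± 0.188 CPM, and Epha6 0.684 ± 0.524 and 0.688 ± 0.483 CPM in the same order (mean and SD, n = 4 per fraction). Their log2 ratios ran from -0.65 for Epha3 to 0.04 for Epha1. Epha8 and Epha10 had 87 and 17 counts in all and were not tested.

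Ephb2, a receptor of B-class ephrins that also binds Efna5, had the smallest p of the set. The YFP- libraries had 78.0, 81.7, 73.4 and 57.5 CPM and the YFP+ libraries 38.2, 35.1, 34.9 and 30.1 CPM. All YFP+ values lay well under the lowest YFP- value, and the log2 ratio was -1.07 (SE 0.11, edgeR-adjusted p = 2.84e-05), a YFP+ level of 0.476 times that in YFP-. No other EphB receptor passed. Ephb3 had a log2 ratio of 0.12 (edgeR-adjusted p = 0.737), Ephb4 0.16 (edgeR-adjusted p = 0.469) and Ephb6, which lacks kinase activity, 0.36 (edgeR-adjusted p = 0.480). Ephb4 and Ephb3 were the most abundant Eph receptors per length, at 13.1 and 10.9 CPM per kilobase. Ephb1 was under 2 CPM in every library, with a log2 ratio of -0.30 (edgeR-adjusted p = 0.873).

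None of the 3 B-class ephrins passed by edgeR, with or without the block, nor by DESeq2 or limma-voom with all 8 libraries. Efnb1 had 36.8 ± 2.91 CPM in the YFP+ and 34.8 ± 4.65 CPM in the YFP- libraries, and Efnb3 1.20 ± 0.305 and 1.38 ± 0.373 CPM (mean and SD, n = 4 per fraction). Efnb2, an arterial and stromal ephrin, had 44.0 ± 9.47 and 36.4 ± 7.12 CPM (mean and SD, n = 4 per fraction), a log2 ratio of 0.27 (edgeR-adjusted p = 0.497, or 0.0653 with the block).

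The sequences before the start of 4 of the 7 lower genes are shown because these members were lower together, with 0 to 17 of their bases inside the gene as GENCODE annotates it. They are the 250 bases before the RefSeq start on GRCm38.p6, read 5′ to 3′ on the gene's strand. Efna5 lies at chr17:62881318-62881567 on the minus strand, Epha2 at chr4:141300971-141301220 on the plus strand, Ephb2 at chr4:136836013-136836262 on the minus strand and Slit2 at chr5:47982905-47983154 on the plus strand. Capitals mark matches on either strand to the GC box (GGGCGG), the TATA box (TATAAA), a SOX motif (ACAAAG) or the NF-kB motif.
Efna5: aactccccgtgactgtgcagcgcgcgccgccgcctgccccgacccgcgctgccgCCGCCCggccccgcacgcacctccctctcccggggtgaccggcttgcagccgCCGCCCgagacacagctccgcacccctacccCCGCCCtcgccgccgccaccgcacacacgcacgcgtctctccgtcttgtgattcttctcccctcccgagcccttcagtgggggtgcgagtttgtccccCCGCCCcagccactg
Epha2: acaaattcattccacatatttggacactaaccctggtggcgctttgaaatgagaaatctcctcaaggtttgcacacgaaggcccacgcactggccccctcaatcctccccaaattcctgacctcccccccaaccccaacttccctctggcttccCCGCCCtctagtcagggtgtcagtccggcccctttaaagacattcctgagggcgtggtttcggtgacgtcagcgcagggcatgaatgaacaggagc
Ephb2: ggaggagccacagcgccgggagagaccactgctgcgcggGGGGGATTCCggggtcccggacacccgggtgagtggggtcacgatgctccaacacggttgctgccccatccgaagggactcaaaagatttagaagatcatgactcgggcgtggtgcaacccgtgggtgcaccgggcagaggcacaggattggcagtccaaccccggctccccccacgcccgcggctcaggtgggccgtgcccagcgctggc
Slit2: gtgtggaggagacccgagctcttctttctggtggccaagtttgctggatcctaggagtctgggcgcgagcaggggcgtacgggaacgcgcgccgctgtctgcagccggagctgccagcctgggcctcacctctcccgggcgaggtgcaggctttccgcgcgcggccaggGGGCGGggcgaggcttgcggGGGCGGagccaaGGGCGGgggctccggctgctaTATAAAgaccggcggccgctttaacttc
The capitals are 4 GC boxes in Efna5, 1 in Epha2 and 3 in Slit2, the NF-kB motif in Ephb2 and a TATA box in Slit2, and none of these matches overlap. RefSeq sequences matched 34 of the 39 members, some with several starts. GC boxes were found in the sequences of 23 of the 34 and of 6 of the 8 called members, where 32.7% of 32841 promoters of the same length hold one. A member counted if any of its starts held a match, while the share is per promoter. Among the called members with a GC box, Ntn4 and Ntng1 have all 250 bases, and Slit3 232, inside the gene as GENCODE annotates it. The 4 printed sequences hold 32, 9, 20 and 25 CG pairs in the order shown, against a median of 6 over all promoters. TATA boxes stood before 2 of the 34 (12.4% of all promoters), the NF-kB motif before 2 (3.90%) and the SOX motif before 2 (16.5%), and 1, 1 and 0 of the 8 called members held them. A match is a description of letters and not of binding.

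Binding partners outside the rule were taken from a list of 22 genes, all tested. The list was chosen with earlier results of these data known, so counts over it are descriptions. Of these 5 were lower and 1 higher (27.3%, against 4.26% of all tested genes), and the median log2 ratio was -0.28 against 0.00 over all tested genes. With the block the counts were 6 and 2, where 11.5% of all tested genes were called. All 3 Flrt genes fell, which encode membrane proteins that bind Unc5 receptors. Flrt2 had 50.5, 62.2, 58.8 and 56.0 CPM in YFP- and 25.4, 41.4, 25.1 and 34.2 CPM in YFP+ (log2 ratio -0.85, SE 0.15, edgeR-adjusted p = 0.00348). Flrt3 had a log2 ratio of -1.09 (edgeR-adjusted p = 0.00167) and the scarce Flrt1 -2.07 (edgeR-adjusted p = 0.00167). Unc5c was thus higher in the fraction with less RNA of these partners.

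Lrrc4c, encoding the netrin-G1 ligand, was lower together with Ntng1. Its values were 19.6, 23.3, 18.1 and 11.8 CPM in YFP- and 5.21, 8.68, 6.39 and 6.20 CPM in YFP+, a log2 ratio of -1.46 (SE 0.21, edgeR-adjusted p = 5.73e-04). Lrrc4, which encodes the ligand of netrin-G2, had a log2 ratio of -0.64 and did not pass (edgeR-adjusted p = 0.523). Mcam, a reported netrin receptor that also marks vessel walls, fell (-1.89, edgeR-adjusted p = 4.17e-04).

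Plxna1, a semaphorin receptor that also binds a Slit fragment, was higher (0.38, edgeR-adjusted p = 0.0307). The call of Plxna1 was lost without YFP- replicate 3 or 4, YFP+ replicate 1, 2 or 3, or both libraries numbered 2, with edgeR adjusted p up to 0.107, and held with the block (edgeR-adjusted p = 5.11e-05). Neo1, a Dcc relative, and Dag1, the Slit-binding dystroglycan, had log2 ratios of -0.04 and 0.00.

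**Figure D4:**
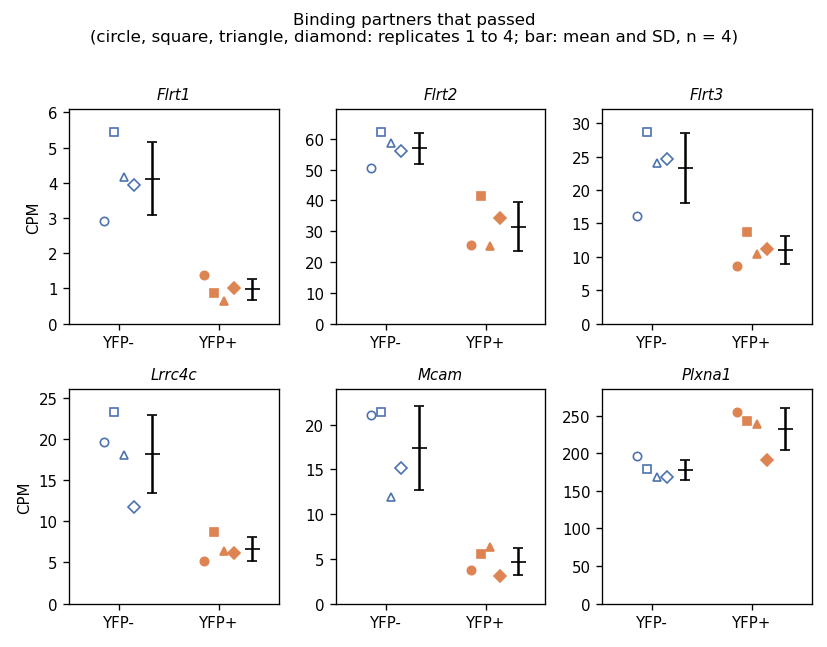
CPM per library for the 6 binding partners that passed, with the mean and SD of 4 libraries per fraction. The 3 Flrt genes, Lrrc4c and Mcam do not overlap between fractions, and Plxna1 does.

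Among 51 tested cytoplasmic effectors of these receptors, 4 were lower and 1 higher (9.80%, against 4.26% of all tested genes), with a median log2 ratio of -0.04. The block gave 8 and 3, where 7.85% and 3.65% of all tested genes were lower and higher (11.5% in all). The effector list was chosen in the same way as the partners, so these counts are descriptions too. Lower were Srgap3, a Slit-Robo GTPase activator (-0.37, edgeR-adjusted p = 0.0154), Vav3, an exchange factor used by Eph receptors (-0.75, edgeR-adjusted p = 0.0340), Ablim1, an actin-binding protein (-0.38, edgeR-adjusted p = 0.0359), and Arhgap39, a Robo-binding GTPase activator (-0.39, edgeR-adjusted p = 0.0445). Nck2, an adaptor of Eph and ephrin signalling, was higher (0.38, edgeR-adjusted p = 0.0117). Each of these 5 lost its call without at least 1 library. Between 0 and 3 of the 4 lower calls were kept when 1 library was left out, 0 of them without YFP- replicate 3 or YFP+ replicate 3, and Nck2 was lost without YFP+ replicate 1 (edgeR-adjusted p = 0.0552).

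Markers of other cells moved between the fractions alongside these members. Of 11 tested genes of enteric glia 10 fell, and their list summed to between 9.27 and 12.3 CPM in YFP+ and between 134.5 and 211 CPM in YFP-. Cdh19 and Kcna1 were the most abundant of them. Of 14 epithelial genes 5 fell, with sums of 20.8 to 29.2 CPM against 52.1 to 104.9 CPM. Lgals4 and Pigr were the most abundant of that list. Pigr was among the 5, and Lgals4 did not pass (log2 ratio -0.19, edgeR-adjusted p = 0.534). Of 10 endothelial genes 1, Tek, fell, with sums of 44.2 to 57.5 CPM against 63.3 to 93.2 CPM. Without Tek the endothelial sums overlapped, at 18.1 to 24.5 CPM against 22.6 to 38.2 CPM. Of 9 crypt-base and deep fibroblast genes, among which C3 and Grem1 were the most abundant, 6 fell, with sums of 6241 to 7208 CPM against 7868 to 10816 CPM. Of 10 subepithelial fibroblast genes 5 were higher, the list having Tnc as its most abundant gene. Its sums overlapped, at 1868.7 to 2252.9 CPM in YFP+ against 1458.5 to 1883.2 CPM in YFP-, and did so without Tnc too. Of 11 smooth muscle genes 3 were higher. Their sums overlapped, at 797.9 to 1295.9 CPM against 566.3 to 810.3 CPM, but did not without Myh11, the most abundant gene. Of 7 mural genes 1 was higher and 1 lower, and 2 of 5 genes of interstitial cells of Cajal, 1 of 6 of neurons and 2 of 10 of general stroma were lower. Among blood cell genes 0 of 8 passed by edgeR, and 0 did at an unadjusted p of 0.05 or by DESeq2 or limma-voom. Of the 5 mesothelial genes edgeR tested 1, Upk3b, which did not pass (unadjusted p = 0.45). Wt1, too scarce for that filter with 102 counts in all, was lower by DESeq2 (adjusted p = 0.0499) but did not pass by DESeq2 with the block (adjusted p = 0.0847). The mesothelial sums were 0.557 to 1.42 CPM in YFP+ and 1.81 to 2.68 CPM in YFP-. With the replicate block, 7 epithelial, 3 endothelial and 8 deep fibroblast genes were lower and 9 smooth muscle genes higher. That fit called more of all tested genes too, 7.85% lower and 3.65% higher. In that fit 2 general stroma genes were higher and 5 lower, and 6 subepithelial fibroblast genes were higher and 1 lower. The part of any of these cells in the members' differences was not tested.

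Single libraries show where members and markers ran side by side. YFP- replicate 2 had the highest glial sum, and it also had the highest YFP- value of Slit2, Slit3, Ntng1, Efna5, Epha2 and Ephb2, but the lowest of Ntn4. This was not particular to the lower members. The same library was also the highest YFP- library for Unc5c, which was higher in YFP+, and for uncalled members such as Ntn1, Robo2 and Epha4. It was not for others, such as Ephb4 and Ntng2. The epithelial sums were 52.1, 104.1, 104.9 and 52.3 CPM in YFP- replicates 1 to 4, and Ntng1 was likewise highest in replicates 2 and 3. This was not particular to Ntng1 either. Uncalled members such as Robo1, Robo2 and Epha4 were also highest in these replicates, while Ephb4 and Ntng2 were not. The glial sum was lowest of the YFP- libraries in replicate 3, at 134.5 CPM. Without both libraries numbered 2, all 7 lower calls and Unc5c were kept, with and without the block.

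**Figure D5:**
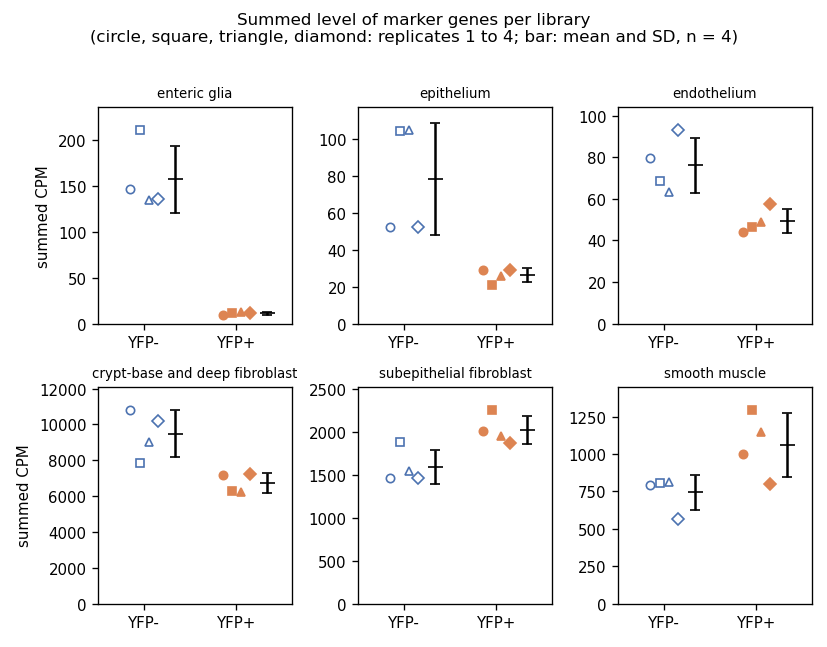
Summed CPM of each marker list per library, with the mean and SD of 4 libraries per fraction. Glial sums are at most 12.3 CPM in YFP+ and at least 134.5 CPM in YFP-, and the fibroblast and smooth muscle sums differ far less in proportion.

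In the authors' deposited table, 8 members were lower and 1 was higher at an adjusted p under 0.05, of 36 with a value. The share of all genes called there was not computed, so this count is a description. DESeq2 with the replicate block, run here, called 511 genes higher and 1216 lower over all genes. The authors' deposited table includes Epha7 (adjusted p = 0.0414) beside the 8 members called here by edgeR without the block, and gives Unc5b an adjusted p of 0.0504. These values lie close to those of DESeq2 with the replicate block, at adjusted p = 0.043 for Epha7 and 0.0523 for Unc5b. DESeq2 without the block gave adjusted p = 0.42 and 0.0957. The submitters' notes name DESeq2 but no design.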

How the data were processed

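RNA from 8 libraries of sorted stromal cells was analysed from 1 table of gene counts. Per the labels' protocols, the library kit keeps strand and suits low RNA input, and an Illumina NextSeq was used. The submitters' processing notes name the tools cutadapt 3.4, STAR 2.7.3a, featureCounts 2.0.1 and also DESeq2, and the build GRCm38 (mm10). Not given in the sources used here is whether the counting used strand. Deposited count columns held raw whole numbers per gene, and all results except those named as the authors' start from them. The authors' deposited log2 fold changes and adjusted p-values were only copied, and 8 normalised columns were not used.

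Groups and replicate numbers came from the descriptions. The members and gene lists were chosen with earlier results of these data known, so counts over them are descriptions. In R 4.3.3, edgeR 4.0.16 with TMM scaling, its expression filter and the robust quasi-likelihood test was fitted to all genes, with Benjamini-Hochberg adjustment. The SE was back-computed as the absolute log2 fold change over the square root of F. The 12 pairs of libraries within a fraction differed by more than sampling noise. Since the labels name no separate animals, the p-values cover only the spread among these samples, which may be technical. Deviations from group means correlated across 5200 genes at 0.38 to 0.64 for libraries of the same number and at -0.42 to 0.05 otherwise, which was read as pairing by number, and the labels do not say what a number stands for. Calls given without mention of the block leave this pairing out. The fit with the replicate block takes it into account and called more genes.

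Alternatives were other scalings and filters, DESeq2 1.42.0, limma-voom (limma 3.58.1), the replicate block, a fit without mitochondrial and ribosomal RNA genes, each library left out, and both libraries numbered 2 left out. Leaving out both libraries numbered 1, 3 or 4 with the block, and marker sums without their most abundant gene, were added after seeing the data. On simulated data the fit was tested too. Exon lengths and coordinates are from GENCODE M21 on GRCm38, where 11 members share exon sequence with another gene, 10 of them on the opposite strand, Unc5c among them. Every member that passed the filter was named, and those called or without overlap between groups were given per library. From the partner and effector lists up to 4 called genes per direction were named by smallest p, with Flrt2, Lrrc4, Neo1 and Dag1 added after their values were seen. From marker lists the most abundant were named.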

Additional observations from a re-analysis of the deposited data

Results flagged for a closer look

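Of 66 sets of 4 values, that is 33 members in 2 fractions, 3 held a library far from the other 3, where chance gives about 1 in 20, or 3.30. Efna5 was low in YFP+ replicate 3 (219 CPM), Epha5 was high in YFP+ replicate 2 (12.4 CPM), and Unc5d was high in YFP+ replicate 2 (2.10 CPM).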

How the results depend on the processing

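With the replicate block, 597 genes were higher and 1283 lower, 2 members were higher, 2 binding partners were higher, and 3 effectors were higher and 8 lower; the block ended no call of a member. DESeq2 with the block gave 511 and 1216 over all genes, 2 partners higher, and 3 effectors higher and 8 lower. DESeq2 alone gave 267 higher. Without a filter, 309 were higher and 934 lower, with 2 partners and 3 effectors higher. Leaving out both libraries numbered 2 gave 0 partners higher, and 2 effectors higher and 2 lower. With the block as well it gave 500 and 1050 over all genes, and 2 members, 2 partners and 3 effectors higher. Leaving out those numbered 1, with the block, gave 455 and 1126, 2 members, 2 partners and 2 effectors higher, and 7 effectors lower. Those numbered 3 gave 331 and 851, with 2 members, 2 partners and 2 effectors higher, and those numbered 4 gave 431 and 1017, with 2 partners and 2 effectors higher. The longest transcript as the length moved Ntn1 to 91.6 and Robo2 to 77.0 CPM per kilobase.

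With 1 library left out, all genes ran from 88 to 156 higher (88 without YFP+ replicate 3, 96 without YFP- replicate 3) and from 339 to 521 lower (339 without YFP+ replicate 3). Members ran from 0 to 1 higher and stayed at 7 lower, partners from 0 to 1 higher and 5 to 6 lower, and effectors from 0 to 2 higher and 0 to 4 lower. All 7 lower members kept their call under all 22 alternatives. Epha7 and Unc5b passed only with the block and in some of its versions, with edgeR adjusted p up to 0.188 and 0.261 when a pair was left out. Efnb2 passed only with the block and both libraries numbered 3 left out (log2 ratio 0.36). With the block as well, Unc5a passed only with those numbered 1 left out (log2 ratio 0.35) and Efna1 only with those numbered 4 left out (log2 ratio -1.41).

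The sign of the log2 fold change turned for 10 members that the text does not call. With both libraries of a number left out and the block, the turned values were 0.01 for Efnb3, 0.00 for Efnb1, -0.11 for Epha1 and 0.17 for Epha6 (number 1), 0.03 for Epha5 (number 2, or 0.02 without the block), 0.17 for Epha4, -0.16 for Efna4 and -0.11 for Epha1 (number 3), and -0.04 for Ntng2 and 0.08 for Dcc (number 4). With the block alone Epha1 came to 0.00. With 1 library left out, Epha4 ran from -0.16 to 0.10, Efna4 from -0.13 to 0.38, Epha5 from -0.31 to 0.24, Epha1 from -0.16 to 0.19, Ephb1 from -0.78 to 0.04, Ntng2 from -0.03 to 0.10, Epha6 from -0.56 to 0.54 and Dcc from -0.52 to 0.21. The cause was not tested. The SE of the log2 fold change reached 0.79 (Unc5d), a member near 1 CPM with 1 YFP+ library far from the other 3.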
